A study of Mus musculus with 2 samples.

Results

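Ckmt1, Ckb, Slc6a8, Gatm and Gamt, 5 genes that store energy as phosphocreatine or supply creatine, were examined across the cells of the mouse retinal pigment epithelium (RPE) layer. They were matched by gene symbol and make up 5 of the 32285 genes counted. The choice was made with earlier results of these data known, and the study that reported the data names Ckmt1 as elevated in RPE cells of treated mice. The RPE cells and their groups were set by the levels of 2 other genes, Rpe65 and Serpina3n. The cells came from male C57BL/6J mice aged 3 months, and were taken 7 days after 1 µl was injected under the retina. It held PBS in the control group and doxorubicin, a drug that damages DNA, at 100 ng/µl in the Dox group. Single-cell 5′ RNA sequencing was run on the dissociated RPE, choroid and sclera after the retina had been removed. Each group was a pool of 10 eyes (5 mice). Each condition therefore had 1 library and no replicate, no test between conditions was possible, and injection, library and treatment cannot be told apart. A subretinal injection covers only part of the RPE and is itself a mechanical injury, so that each library can also hold RPE cells from outside the injected area and no eye was left uninjected.

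Creatine kinases move a phosphate group between ATP and creatine. The mitochondrial enzyme (Ckmt1) makes phosphocreatine from newly made ATP, and the cytosolic brain-type enzyme (Ckb) returns it to ATP where energy is spent. Creatine is made in sequence by Gatm, which joins arginine and glycine to guanidinoacetate and releases ornithine, and by Gamt, which methylates guanidinoacetate with S-adenosylmethionine, and it enters cells through the transporter Slc6a8. The RPE pumps ions, recycles visual pigment and takes up shed outer segments, all of which cost energy.

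On GRCm38, Ckmt1 (ENSMUSG00000000308) lies on chromosome 2 from 121357714 to 121363737 and Gatm (ENSMUSG00000027199) on chromosome 2 from 122594467 to 122611303. Ckb (ENSMUSG00000001270) lies on chromosome 12 from 111669361 to 111672338, Slc6a8 (ENSMUSG00000019558) on chromosome X from 73673150 to 73682502 and Gamt (ENSMUSG00000020150) on chromosome 10 from 80258151 to 80261012. The 100 bases just upstream of the outermost annotated start are given for the 4 members matched in the promoter table, so that the letters upstream of the kinase and the synthesis genes can be compared. Sequences are from RefSeq on GRCm38.p6, read 5′ to 3′ on the strand of the gene, and capitals mark the letters of 3 promoter motifs, each searched on both strands. The first is the TATA box, spelled TATAAA. The others are the box named after its letters CCAAT and the GC box, which is spelled GGGCGG and lies in Gamt in its reverse form.
Ckmt1 (chr2:121357614-121357713, plus strand): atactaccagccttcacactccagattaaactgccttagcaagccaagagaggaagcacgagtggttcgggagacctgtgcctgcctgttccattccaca
Ckb (chr12:111672339-111672438, minus strand): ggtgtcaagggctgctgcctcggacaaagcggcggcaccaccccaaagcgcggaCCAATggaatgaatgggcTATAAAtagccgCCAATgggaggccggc
Gatm (chr2:122611304-122611403, minus strand): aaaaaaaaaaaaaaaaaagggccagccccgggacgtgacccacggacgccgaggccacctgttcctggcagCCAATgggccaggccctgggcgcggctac
Gamt (chr10:80261013-80261112, minus strand): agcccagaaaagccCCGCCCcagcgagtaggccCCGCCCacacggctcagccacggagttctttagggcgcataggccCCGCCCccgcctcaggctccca

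The 4 genes have 5 RefSeq starts, Ckmt1 having a pair of them. Within 250 bases upstream, Ckb held a TATA box at -28 and CCAAT boxes at -46 and -16, counted from the RefSeq start. Ckmt1 held TATA box letters in reverse form (TTTATA) at -31 from its upstream start, outside the bases printed. It also held a CCAAT box in reverse form (ATTGG) at -242 from its downstream start. Gatm held CCAAT boxes at -190, in reverse form, and at -55, and Gamt held GC boxes at -86, -67 and -22. No motif overlapped another. Of 32851 such windows, 12.4% held TATA box letters, 33.8% CCAAT box letters, 32.7% GC box letters and 7.13% a p53 half-site, which none of the members' windows held. These are matches of letters only.

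The control library held 20381 barcodes with 117731270 unique molecular identifiers (UMIs, tags that mark single RNA molecules) and the Dox library 15649 barcodes with 103997248 UMIs. After filtering, 20180 and 15426 cells remained, and 441 barcodes occurred in both libraries. RPE cells were those with at least 10 UMIs of Rpe65, the retinoid isomerase gene of the RPE: 1526 cells in control (26313869 UMIs, median 16013.5 per cell) and 1630 in Dox (31201113 UMIs, median 18115.5). All 7 RPE markers were detected in them, but also in all other cells of both libraries. The markers, Rpe65 among them, summed to 96490 CPM (UMIs per 1000000) in control and 97545 in Dox RPE cells. In all other cells they summed to 3858 and 6341 CPM. Of the RPE cells, 85.4% and 85% lay in the RPE-like cluster. They were split at 1000 CPM of Serpina3n, a gene for a secreted protease inhibitor. Control had 1511 Serpina3n-low and 15 Serpina3n-high cells, and Dox had 1422 and 208. The Serpina3n-high Dox cells also carried more Cdkn1a, the p21 cell-cycle inhibitor gene (317.8 against 69.1 CPM), less Rpe65 (1954 against 5499 CPM) and more UMIs per cell (median 28244 against 16608). The 12 fibroblast markers summed to 1608 CPM in Serpina3n-low control cells, 1097 in Serpina3n-low Dox cells and 374 in Serpina3n-high Dox cells (10 to 11 of 12 detected, Kera at 0 in each and Dpt at 0 in the last), against 16394 and 16511 CPM in all other cells. The 8 melanocyte markers summed to 2697, 1700 and 1793 CPM in those RPE groups (8 of 8 detected), and the 11 macrophage markers to 383.9, 197.7 and 109.1 CPM (9 to 11 of 11 detected, Mrc1 and Adgre1 at 0 in the last). In the 15 Serpina3n-high control cells the 3 lists summed to 1745, 3801 and 143.6 CPM. The melanocyte list holds Pmel, which the study gives as a marker of an RPE cluster. The sum of that list can therefore include RNA of the RPE cells themselves. The part of RNA from other cells in the results was not tested. The limit on Rpe65 also depends on depth, so that shallow RPE cells, and more so those low in Rpe65, fell below it.

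Below, a level is the CPM of the summed UMIs of a group, a difference is a log2 ratio of CPM, and brackets hold 95% intervals (exact Poisson for a level, exact conditional binomial for a ratio). They cover counting error only. Cells of a library are not replicates and vary by more than counting error, so that these intervals are narrower than the true uncertainty. A gene was compared where both groups together held at least 50 UMIs, and is called higher or lower at a difference of at least 1.5-fold. Levels are compared between groups of cells, not between genes.

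Ckmt1, the mitochondrial kinase, was the member whose RNA was most tied to RPE cells. Its level was 42.6 CPM (40.2 to 45.2) in control RPE cells against 1.93 CPM (1.65 to 2.24) in all other cells, a log2 ratio of 4.47 (4.24 to 4.71). In Dox it was 57.8 CPM (55.2 to 60.5) against 4.81 (4.30 to 5.37), a log2 ratio of 3.59 (3.42 to 3.76). RPE cells stood first in both libraries, and no interval of another cell type reached theirs.

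The low Ckmt1 level outside the RPE was set beside that of Rpe65, whose RNA was found in every cell group. Rpe65 also set the groups. Every other cell held fewer than 10 Rpe65 UMIs by definition, while Ckmt1 had no such limit. The ratios to Rpe65 in this paragraph are therefore shaped in part by that limit, and do not show where the Ckmt1 RNA came from. Per 1000 Rpe65 UMIs, control held 8.59 Ckmt1 UMIs in RPE cells (8.09 to 9.11) and 8.14 in all other cells (6.96 to 9.46), and Dox held 11.9 (11.3 to 12.4) and 14.2 (12.7 to 15.8). In control the intervals of these sums overlapped, but single groups lay to either side of the RPE interval, with 6.36 (4.99 to 7.99) in the fibroblast-like cells led by Myoc and 13.6 (9.72 to 18.5) in the cluster led by Hbb-bs. In Dox the other cells lay between Serpina3n-low (8.90) and Serpina3n-high RPE cells (50.5, 46.2 to 55). Whether the Ckmt1 RNA outside the RPE was made there was not tested. The higher Ckmt1 level of all other cells in the Dox library (log2 ratio of Dox over control 1.32, 1.05 to 1.60) went with a higher Rpe65 level there (339.8 against 236.8 CPM). The difference in Ckmt1 was the larger one, as the values of 8.14 and 14.2 per 1000 Rpe65 UMIs show, whose intervals did not overlap.

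**Figure D1:**
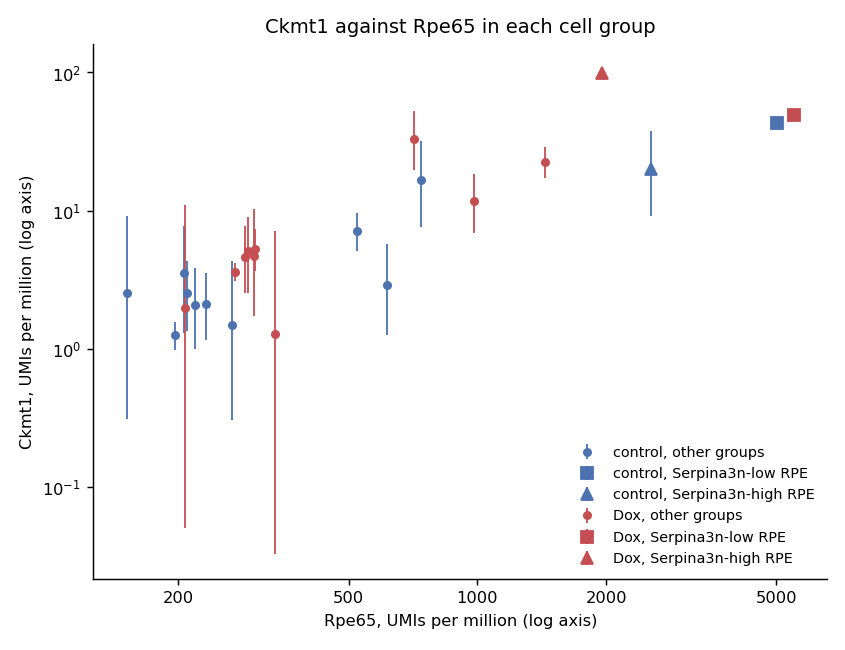
Level of Ckmt1 (y axis) against that of Rpe65 (x axis), both in CPM on log axes, with 1 point for each cell group and library and 95% Poisson intervals for Ckmt1. The Serpina3n-low RPE cells of both libraries, which were chosen by Rpe65, sit at the right (43.0 and 48.9 CPM of Ckmt1). The Serpina3n-high Dox cells stand above them at 98.6 CPM with a lower Rpe65 level.

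Within the RPE, Ckmt1 stood at 43.0 CPM (40.6 to 45.6) in Serpina3n-low control cells, 48.9 (46.3 to 51.7) in Serpina3n-low Dox cells and 98.6 (90.6 to 107) in Serpina3n-high Dox cells. The 15 Serpina3n-high control cells held 9 UMIs, or 19.9 CPM (9.09 to 37.7). The Serpina3n-high cells of Dox were thus the highest group and those of control the lowest. The ratio of Serpina3n-high over Serpina3n-low cells was 1.01 in Dox (0.86 to 1.16) and -1.11 in control (-2.25 to -0.18), where it rests on 15 cells. Of these 15 control cells, 4 (26.7%) were among the highest doublet scores of their library, against 6 (2.88%) of the 208 Dox cells. Among Serpina3n-low RPE cells the shares were 21.8% in control and 12.9% in Dox, so the control share was near that of other control RPE cells. Under 13 other settings the control ratio ranged from -2.04 to -0.55. Dox over control gave 2.31 (1.38 to 3.45) in Serpina3n-high cells, 0.18 (0.07 to 0.30) in Serpina3n-low cells and 0.44 (0.33 to 0.55) in all RPE cells. The value of Serpina3n-low cells was 0.05 among cells of 15000 to 40000 UMIs and 0.33 with cells thinned to 5000 UMIs.

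More cells carried Ckmt1 RNA as well. Of Serpina3n-high Dox cells, 78.4% held a Ckmt1 UMI, against 42.2% of Serpina3n-low Dox cells and 2.01% of the fibroblast-like cells led by Myoc (median 5409 UMIs per cell), a cell type given here for comparison. With every cell thinned to 5000 UMIs, the shares were 31.3% (24.8 to 38.3, 195 cells) and 18% (15.9 to 20.3, 1233 cells). The order was the same at equal depth. Without thinning, the median Serpina3n-high Dox cell held 78.7 CPM (quartiles 30.6 and 136). The median depth of these cells was 28244 UMIs, against 16608 in Serpina3n-low Dox cells. The median Serpina3n-low cell held no UMI of Ckmt1 in either library, and neither did the median of the 15 Serpina3n-high control cells.

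Ckb, the cytosolic kinase, was present in nearly every RPE cell but was not restricted to them. It reached 1296 CPM in control RPE cells (34091 UMIs) and 1349 CPM in Dox RPE cells (42092 UMIs), against 456.8 and 443.6 CPM in all other cells, 2.84-fold and 3.04-fold higher in RPE cells. A UMI of Ckb was found in 96.9% and 96.7% of RPE cells. At 5000 UMIs per cell the shares were 98.2% and 98.6%, against 77.5% and 77% of all other cells. They were 97.6% and 97.8% in smooth muscle-like cells and 61.2% and 55.6% in NK or T-like cells. By level, the smooth muscle-like cells stood above RPE cells, at 1773 CPM in control (1736 to 1811) and 1993 in Dox (1934 to 2053). The log2 ratio of RPE over them was -0.45 (-0.49 to -0.42) and -0.56 (-0.61 to -0.52). The NK or T-like cells were lowest, at 240.4 and 191.9 CPM. Among the groups between, macrophage-like cells held 560.1 and 587.4 CPM, and fibroblast-like cells led by Myoc 366.9 and 364.5 CPM. In control, the 5 groups from the fibroblast-like cells led by Myoc (366.9 CPM) to the cluster led by Gfra3 (342 CPM) could not be ordered beyond their intervals.

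Across RPE groups Ckb differed little. It stood at 1289 CPM in Serpina3n-low control, 1381 in Serpina3n-low Dox and 1202 in Serpina3n-high Dox cells, with 1687 CPM (1570 to 1811) in the 15 Serpina3n-high control cells. Dox over control was 0.06 (0.04 to 0.08) in all RPE cells, 0.10 (0.08 to 0.12) in Serpina3n-low cells and -0.49 (-0.60 to -0.38) in Serpina3n-high cells, below 1.5-fold in each. Serpina3n-high over low cells gave -0.20 in Dox (-0.24 to -0.16) and 0.39 in control (0.28 to 0.49). The median of all genes compared was -0.184 in Dox, so that relative to it Ckb differed by -0.02, whereas Ckmt1 stood 1.20 above it. The mitochondrial and the cytosolic kinase therefore had unlike patterns: Ckmt1 was higher in the Serpina3n-high Dox cells, and Ckb stayed near the typical gene.

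**Figure D2:**
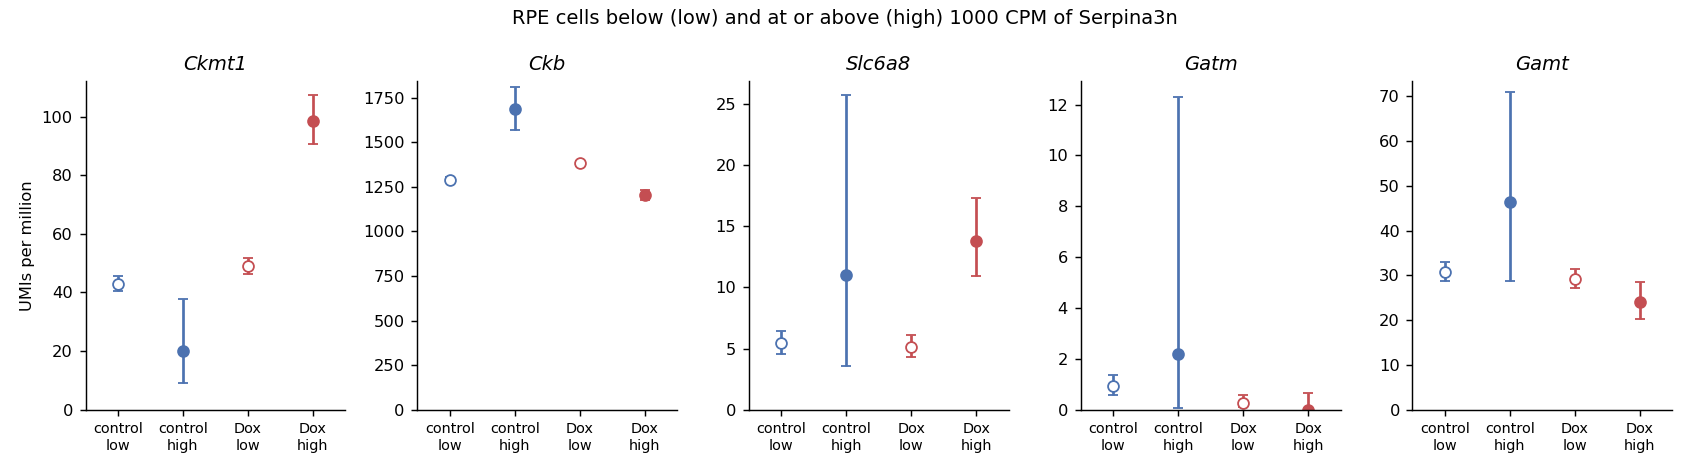
Level of each member in CPM (y axis, from 0) in RPE cells below (open) and at or above (filled) 1000 CPM of Serpina3n, by library, with 95% Poisson intervals. Ckmt1 and Slc6a8 are higher in the filled than in the open Dox points (98.6 against 48.9 CPM and 13.8 against 5.15 CPM), and the filled control points rest on 15 cells.

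The muscle-type kinases were close to absent. Ckm, the cytosolic muscle form, gave 9 UMIs in control RPE cells and 0 in Dox, where 0 allows up to 0.0962 CPM (3 UMIs). Ckmt2, the muscle form of the mitochondrial kinase, gave 0 UMIs in every group. The limit, again at 3 UMIs, was 0.114 CPM in control RPE cells and 0.0338 and 0.0444 CPM in the other cells of control and Dox. Ckmt1 and Ckb were thus the creatine kinase RNAs detected above a trace in RPE cells.

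Slc6a8, the creatine transporter gene, was lower in RPE cells than in most of their neighbours. RPE cells held 5.55 CPM in control (146 UMIs) and 6.70 in Dox (209 UMIs), against 18.1 and 16.9 CPM in all other cells, log2 ratios of -1.70 (-1.96 to -1.46) and -1.33 (-1.55 to -1.12). Its level was highest in smooth muscle-like cells, 40.9 CPM (35.4 to 47.05) in control and 53.4 (44.1 to 64.0) in Dox. Serpina3n-low RPE cells and NK or T-like cells were the 2 lowest groups in both libraries, and their intervals overlapped.

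Within the RPE, Slc6a8 differed in the same direction as Ckmt1 in Dox. It stood at 5.45 CPM (141 UMIs) in Serpina3n-low control cells, 5.15 (132 UMIs) in Serpina3n-low Dox cells and 13.8 (10.9 to 17.3, 77 UMIs) in Serpina3n-high Dox cells, with 5 UMIs (11.04 CPM, 3.59 to 25.8) in the 15 Serpina3n-high control cells. Serpina3n-high Dox cells exceeded Serpina3n-low ones by a log2 ratio of 1.43 (1.001 to 1.84), and came near the level of fibroblast-like cells led by Myoc (15.4 CPM) and of macrophage-like cells (11.2 CPM). The unnamed clusters led by Hbb-bs and Gfra3 held more (25.9 and 27.9 CPM). In control the log2 ratio of Serpina3n-high over low cells was 1.02 (-0.63 to 2.275), on 5 UMIs in the Serpina3n-high cells. Between Serpina3n-high and Serpina3n-low Dox cells, some marker sums were lower in the former (fibroblast and macrophage, above) and others higher. The latter were melanocyte (1793 against 1700 CPM), Schwann (45.45 against 31.3, 5 of 8 detected) and cone markers (22.8 against 17.5, 2 of 5 detected). Müller glia markers were also higher (134.7 against 37.1, 1 of 5 detected, with Aqp4, Slc1a3, Kcnj10 and Gfap at 0). The melanocyte sum can include RNA of the RPE cells themselves (above). The part of RNA from other cells in the Slc6a8 level was not tested. A UMI was found in 29.8% of the Serpina3n-high against 7.52% of Serpina3n-low Dox cells, and at 5000 UMIs per cell in 10.8% (6.79 to 16.0) against 2.92% (2.05 to 4.02). Dox over control was 0.27 (-0.04 to 0.59) over all RPE cells, -0.08 (-0.44 to 0.27) in Serpina3n-low and 0.33 (-0.96 to 1.99) in Serpina3n-high cells, intervals that all include 0.

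Gatm, the gene of the enzyme that starts creatine synthesis, was close to absent from RPE cells. They held 25 UMIs in control (0.95 CPM) and 7 in Dox (0.22 CPM), against 5.45 and 4.86 CPM in all other cells, log2 ratios of -2.52 (-3.16 to -1.94) and -4.44 (-5.76 to -3.38). The 25 control UMIs lay in 15 cells, and a single cell held 8 of them. With only cells that also lay in the RPE-like cluster, the control ratio was -3.38. No UMI was found in the 208 Serpina3n-high Dox cells, which allows up to 0.539 CPM. RPE cells of Dox and control together held under 50 UMIs, so no comparison among RPE groups is called. The fibroblast-like cells led by Myoc had a level about as low in control (0.88 CPM). In Dox they held 1.02 CPM, a log2 ratio of RPE over them of -2.19 (-3.58 to -1.04) that rests on 7 RPE UMIs.

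Gatm was instead concentrated in a few other groups. It reached 63.2 CPM in macrophage-like cells of control (56.5 to 70.4) and 56.5 of Dox (48.3 to 65.6), 17.9 and 50.6 CPM in the unnamed cluster led by Gfra3, where 17 of 1046 and 19 of 606 cells held it with up to 12 and 15 UMIs in a cell, and 17.1 and 29.5 CPM in endothelial-like cells. In control, macrophage-like cells stood above all other groups beyond their intervals. In Dox, their interval overlapped that of the cluster led by Gfra3. Of macrophage-like cells, 20.2% in control and 16% in Dox held a UMI, against 0.394% and 0.358% of fibroblast-like cells led by Myoc, at median depths of 4175 and 3050.5 against 4755.5 and 5409 UMIs.

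Gamt, the methyltransferase gene, was detected in RPE cells at a level below most other groups. It stood at 31.1 CPM in control (818 UMIs) and 28.4 CPM in Dox (885 UMIs), against 53.2 and 57.2 CPM in all other cells, log2 ratios of -0.78 (-0.88 to -0.67) and -1.01 (-1.12 to -0.91). Smooth muscle-like cells held 85.8 and 94.8 CPM, while macrophage-like (23.7 and 20.5 CPM) and NK or T-like cells (17.8 and 16.45 CPM) held less than RPE cells in both libraries. Smooth muscle-like cells thus stood first for Ckb, Slc6a8 and Gamt, with overlap of the next group for Gamt in both libraries and for Slc6a8 in control.

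Gamt was lower in the Serpina3n-high cells of Dox than in those of control, a comparison that rests on 15 control cells. The level was 30.8 CPM in Serpina3n-low control, 29.3 in Serpina3n-low Dox and 24.1 (20.2 to 28.5) in Serpina3n-high Dox cells, with 21 UMIs (46.4 CPM, 28.7 to 70.9) in the Serpina3n-high control cells. Serpina3n-high over low in Dox was -0.28 (-0.56 to -0.02). Dox over control was -0.13 (-0.27 to 0.01) over all RPE cells, -0.07 (-0.22 to 0.07) in Serpina3n-low cells and -0.95 (-1.62 to -0.21) in Serpina3n-high cells. With a higher limit on Serpina3n, which left 8 control cells, the last value was -0.39 and no longer past 1.5-fold.

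**Figure D3:**
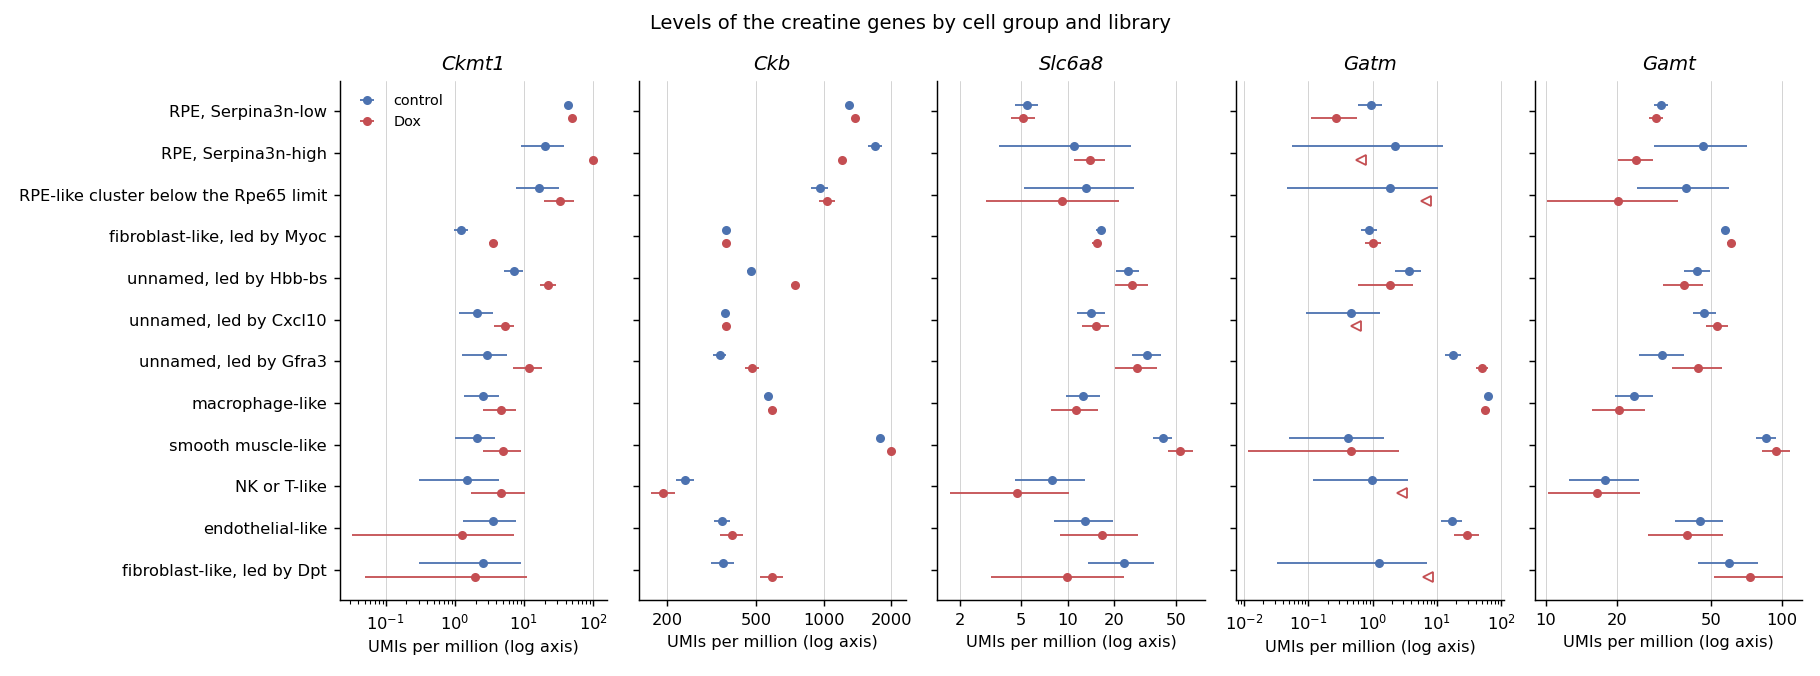
Level of each member in CPM (log x axis) by cell group (rows) and library (colours), with 95% Poisson intervals. Open triangles mark the upper 95% Poisson bound of groups with 0 UMIs. Ckmt1 is highest in RPE rows, Ckb and Gamt in the smooth muscle-like row (1773 and 1993 CPM of Ckb), Slc6a8 also there, and Gatm in the macrophage-like, endothelial-like and Gfra3-led rows.

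As counts, both kinases were called higher and all 3 supply genes lower in RPE cells than in all other cells of each library. Over all genes, 19.2% of 14981 were called higher and 44.5% lower in control, and 20.8% of 14636 higher and 42.9% lower in Dox, with median log2 ratios of -0.425 and -0.366, so that a lower call for a supply gene is the commonest outcome. Of 4 members compared in Dox over control, none was called in all RPE cells (background 1.66% higher and 4.92% lower of 12774 genes) or in Serpina3n-low cells (1.05% higher and 3.87% lower of 12617). In Serpina3n-high cells, 1 was called higher, Ckmt1, and 1 lower, Gamt, against 16.5% and 10.9% of 7669 genes. Of 4 members in Serpina3n-high over low Dox cells, Ckmt1 and Slc6a8 were called higher and none lower, against 4.72% and 20.3% of 11662 genes.

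The Serpina3n limit was also replaced by steps. In Dox, Ckmt1 stood at 46.15 CPM (43.3 to 49.1) in cells below 100 CPM of Serpina3n, 44.1 (36.1 to 53.3) from 100 to 300, 101 (84.9 to 119) from 300 to 1000, 86.9 (72.1 to 104) from 1000 to 3000 and 103 (93.1 to 113) above. It was thus level below 300 CPM and about as high from 300 CPM on as in the top step. Slc6a8 stood at 3.89 CPM (3.11 to 4.81) below 100 and between 12.1 and 14.2 CPM in all higher steps of Dox, with intervals that overlapped each other but not that of the lowest step. Cdkn1a stood at 43.5, 137, 354, 319 and 317 CPM in the same steps of Dox. It and Slc6a8 were thus higher in the 100 to 300 step than below it, and Ckmt1 was not. The steps give no Serpina3n threshold for a gene, because they also sort cells by depth (below). All other cells of Dox held 155.8 CPM of Serpina3n, 360 of Cdkn1a, 16.9 of Slc6a8 and 4.81 of Ckmt1. Of the Dox RPE cells, 245 lay outside the RPE-like cluster, while 197 of the 208 Serpina3n-high cells lay in it. The part of RNA from other cells in these steps was not tested. In control, Ckmt1 was between 17.4 and 49.7 CPM in all steps, with 36, 9 and 6 cells in the upper 3. Slc6a8 in control stood at 5.21, 6.01, 12.4, 10.45 and 12.1 CPM along the steps. Its upper 3 levels were thus near those of Dox, but rest on 9, 3 and 2 UMIs. Cdkn1a in control stood at 44.9, 79.7, 80.0, 34.8 and 72.4 CPM.

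**Figure D4:**
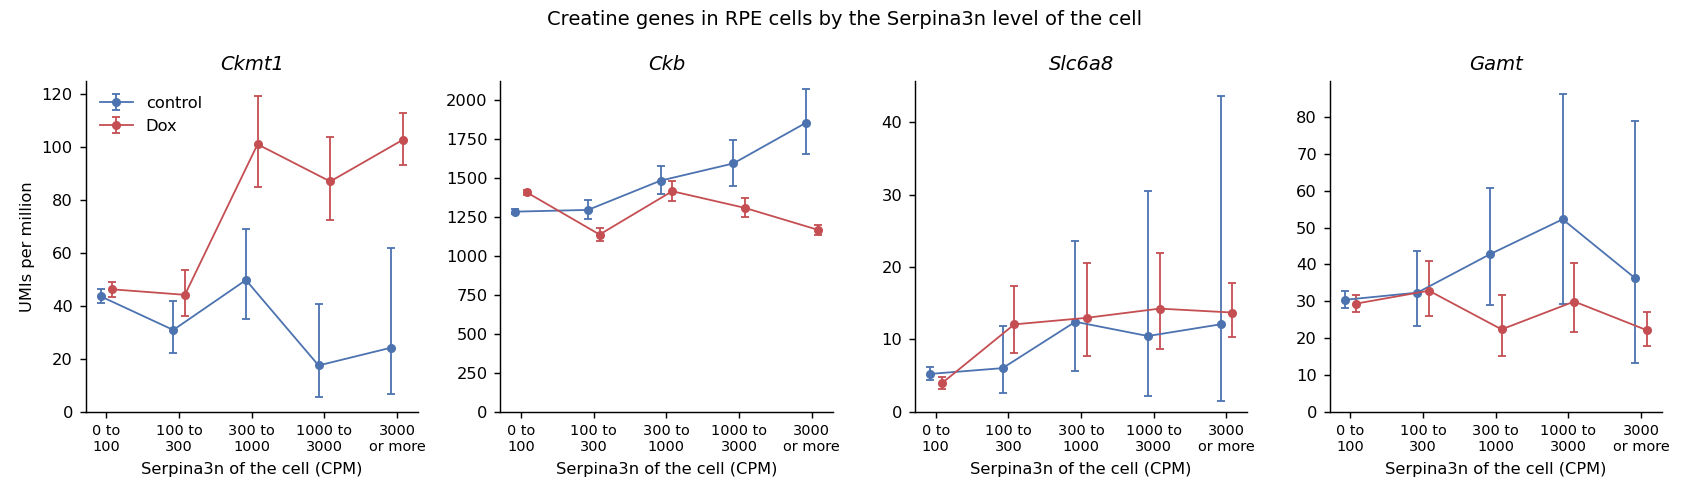
Level of Ckmt1, Ckb, Slc6a8 and Gamt in CPM (y axis, from 0) in RPE cells grouped by the Serpina3n level of the cell (x axis, in CPM), by library, with 95% Poisson intervals. In Dox, Ckmt1 is at 44.1 CPM in cells at 100 to 300 CPM of Serpina3n and 101 CPM at 300 to 1000 CPM. Slc6a8 is at 12.1 CPM in cells at 100 to 300 CPM.

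The median depth of Dox cells changed along these steps, from 19327 UMIs below 100 CPM of Serpina3n to 8610 and 5999 in the next steps and 22160.5 and 28992 in the last. Ckmt1 was near 100 CPM both in the shallow cells of the 300 to 1000 step and in the deep cells of the top step. Whether the size or the RNA content of the cells had a part was not tested.

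The enzymes around creatine were taken from a list of 34 genes, of which 26 held enough UMIs to compare in all RPE cells. Dox over control called 1 higher (Ass1, 13.5 against 8.82 CPM, log2 ratio 0.61, 0.38 to 0.85) and 0 lower in all RPE cells, and 0 of 26 either way in Serpina3n-low cells, with medians of 0.0319 and 0.108 beside -0.0114 and 0.0127 for all genes. Over all genes, 1.66% were called higher and 4.92% lower in all RPE cells, and 1.05% and 3.87% in Serpina3n-low cells. In Serpina3n-high cells, 19 were compared. Ak1 was called higher (96.3 against 64.05 CPM, 0.59, 0.05 to 1.18) and Asl lower (9.70 against 17.7 CPM, -0.86, -1.95 to 0.42, with 8 UMIs in control), with a list median of 0.0876 beside 0.0135 for all genes. Over all genes, 16.5% were called higher and 10.9% lower, so that the calls of the list were no more frequent than over all genes.

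In Serpina3n-high over low Dox cells, 4 of 25 genes were called higher and 6 lower, against 4.72% and 20.3% of all genes, so that the lower calls were about as frequent as over all genes. They came with a list median of -0.138 beside -0.184 for all genes. Of 5 genes of arginine and ornithine use compared, 3 were called higher. Ass1, which makes argininosuccinate on the way to arginine, stood at 33.2 against 9.21 CPM (1.85, 1.57 to 2.14). Oat, which breaks down the ornithine that creatine synthesis releases, stood at 510.8 against 276 CPM (0.89, 0.82 to 0.95), and Odc1, which turns ornithine into putrescine, at 109.1 against 62.65 CPM (0.80, 0.66 to 0.94). Asl, the enzyme that follows Ass1 and releases arginine, was called lower (9.70 against 15.2 CPM, -0.65, -1.09 to -0.24). In the 15 Serpina3n-high control cells, Ass1 (28.7 against 8.47 CPM, 1.76, 0.83 to 2.57) and Oat (424 against 270.9 CPM, 0.65, 0.43 to 0.85) also stood above Serpina3n-low cells, while Ckmt1 did not.

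Of the other phosphotransfer kinases, Ak1, the cytosolic adenylate kinase, was called higher in Serpina3n-high Dox cells (96.3 against 50.4 CPM, 0.94, 0.79 to 1.08), and Ak3, an adenylate kinase of the mitochondrial matrix, was not (-0.14). In control, Ak1 was also higher in Serpina3n-high cells (64.05 against 41.45 CPM, 0.63, 0.04 to 1.16), where Ckmt1 was lower. Among partners at the mitochondrial membranes, through which ATP and phosphocreatine pass, 0 of 5 were called. Vdac2, an outer membrane channel, came nearest (413 against 279.6 CPM, 0.56, 0.49 to 0.63), and Slc25a4, the ATP and ADP exchanger, stood at 966.5 against 927.8 CPM (0.06, 0.02 to 0.10).

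The transport and methyl supply parts of the list held the remaining lower calls. Slc6a6, the taurine transporter of the same family as Slc6a8, stood at 223 against 355 CPM (-0.67, -0.76 to -0.59), Slc7a1, an arginine transporter, at 5.57 against 11.8 CPM (-1.08, -1.66 to -0.55), and Slc7a2, another, at 4 UMIs against 47 (-1.35, -3.29 to 0.10). Ahcyl1 and Ahcyl2, relatives of the S-adenosylhomocysteine hydrolase, stood at 50.3 against 79.7 CPM (-0.66) and 35.2 against 59.1 CPM (-0.75). The hydrolase gene itself, Ahcy (-0.29), was not called. Nor were Mat2a (-0.14), Mat2b (-0.23) and Gnmt (0.04) of the same part, so the calls do not show a lower methyl supply. Relative to the median of all genes, 5 list genes were past 1.5-fold higher, with Vdac2 added, and 2 lower, Slc7a1 and Slc7a2. No share of all genes is given on this shifted scale, so whether these counts are unusual cannot be told. Slc16a12, a creatine exporter, gave 2 UMIs in control and 1 in Dox RPE cells. Slc16a9, a relative of it, stood at 156.3 and 168.9 CPM there, 4.12-fold and 3.45-fold above all other cells.

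**Figure D5:**
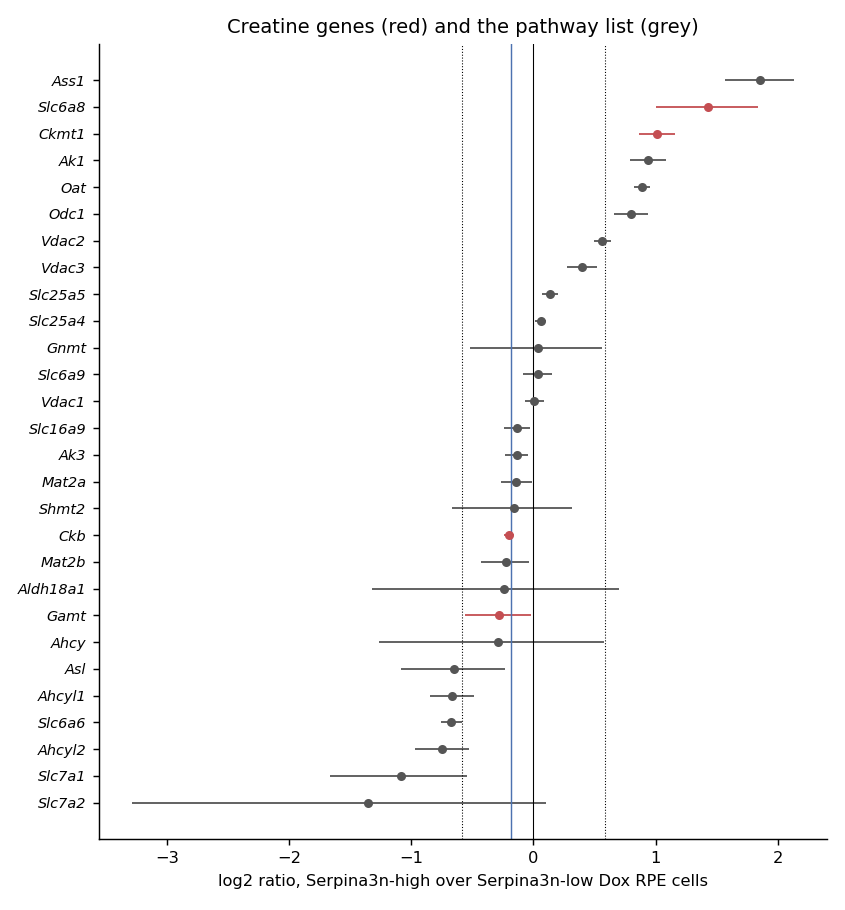
Log2 ratio of Serpina3n-high over Serpina3n-low Dox RPE cells (x axis) for the 4 compared members (red) and genes of the list around them (grey), with 95% intervals. The blue line is the median of all genes (-0.184) and the dotted lines mark 1.5-fold. Ass1, Slc6a8, Ckmt1, Ak1, Oat and Odc1 lie to the right of the dotted line, and Ckb lies at the blue line (-0.20).

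Compared with all other cells, 8 of 30 list genes were called higher and 12 lower in control RPE cells, and 10 and 11 of 29 in Dox. Over all genes, 19.2% were called higher and 44.5% lower in control, and 20.8% and 42.9% in Dox, so that the lower calls of the list were no more frequent than over all genes. Of 6 genes of arginine and ornithine use, 5 were called lower in each library and 1 (Asl) higher in Dox (14.2 against 9.05 CPM). Among the lower ones were Oat (273.5 against 606.2 CPM in control) and Ass1 (8.82 against 51.9 CPM). Slc6a9, the transporter of glycine, a substrate of Gatm, was 9.54-fold higher in control RPE cells (110.7 against 11.6 CPM) and 7.95-fold higher in Dox. Slc25a4 was 2.06-fold and 2.11-fold higher.

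The genes most like each member were those with the highest Pearson r of log2(CPM + 1) over 21 groups of at least 50 cells, among 6405 genes. The groups share 2 libraries, depth and free RNA, and r is given as a description. For Ckmt1 these were Sult1c1 (0.970), Ppp1r1b (0.964), Adam7 (0.963), Mogat1 (0.960) and Trf (0.960). For Ckb they were Dbndd2 (0.916), Sh3bgr (0.912), Parm1 (0.890), Ccnd1 (0.879) and Hspb6 (0.878), and for Gatm Swap70 (0.912), Arhgap17 (0.905), Synj1 (0.889), Tut7 (0.889) and Uvrag (0.876). For Gamt they were Csrp2 (0.927), Kank2 (0.911), Klhl13 (0.906) and 2310022B05Rik (0.902). Slc6a8 had the least close matches, Plcb4 (0.864), Mbnl2 (0.854), Sgip1 (0.839), St5 (0.835) and Nkd1 (0.835). The lists of the 5 members did not share a gene.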

How the data were processed

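The deposited values were raw counts of UMIs per gene and cell, which the authors made with Cell Ranger (4.0.0 per the file headers) on mm10 (GRCm38). The annotation version is not given in the sources used here. Following the study's methods, a cell was kept if it had more than 500 UMIs, more than 200 but fewer than 6000 genes, a complexity (ratio of the logarithms of genes and UMIs) over 0.8 and less than 0.2 of its UMIs from mitochondrial genes. They were clustered with Seurat 5.3.0 (SCTransform, sctransform 0.4.2, integration on 3000 features, 40 components, resolution 0.1, R 4.3.3). Clusters were named from marker lists with at least 3 markers at 10 CPM, a marker among the 10 leading genes (at 50 CPM or more), more markers there than any other type, and 50% of cells holding at least 3 markers. The last rule was added after the clusters were seen and left the cluster led by Gfra3, where 4.88% of cells passed it, unnamed.

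Sums and intervals were computed in Python 3.11.15 (pandas 2.3.3, scipy 1.17.1, numpy 2.4.6), and matplotlib 3.10.9 drew the plots. Intervals cover counting error only. Shares have Clopper-Pearson intervals. The members, the list of 34 genes and the markers were chosen with earlier results of these data known. The text names the members, list genes at 1.5-fold in Serpina3n-high cells, Ckm, Ckmt2 and the 5 genes most like each member, of which 1 is not reported here. Vdac2, Slc25a4, Slc6a9, Slc16a9, Slc16a12 and Ak3 were named after their values were seen. Positions are from GENCODE vM21 and promoters from RefSeq GRCm38.p6, which had no entry used for Slc6a8. The intervals were tested on counts simulated with counting error only, so that the test does not cover variation between cells, mice or libraries. Scrublet (scanpy 1.11.5) called 9.62% of control cells and 0% of Dox cells, so it did not work in Dox. Apart from the upper limit on genes, no doublets were removed. Settings tried as alternatives were the limits on Rpe65, Serpina3n, mitochondrial share, genes and UMIs, doublet scores, the scaling, thinning and the pseudocount.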

Additional observations from a re-analysis of the deposited data

Results flagged for a closer look

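The following pairs of cell groups differed in direction under the same contrast. With 1 library per condition none of these differences was tested, and brackets hold 95% intervals for counting error only.

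The log2 ratio of Ckmt1 in Serpina3n-high over Serpina3n-low RPE cells was -1.11 in control (-2.25 to -0.18, with 9 UMIs in 15 cells) and 1.01 in Dox (0.86 to 1.16). That of Ckb was 0.39 in control (0.28 to 0.49) and -0.20 in Dox (-0.24 to -0.16). Both libraries had the median of all genes near -0.19 in this contrast (-0.188 in control and -0.184 in Dox).

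Ckb was higher in Dox than in control in the fibroblast-like cells led by Dpt (log2 ratio 0.73, 0.49 to 0.97), the unnamed clusters led by Hbb-bs (0.66, 0.57 to 0.74) and by Gfra3 (0.48, 0.34 to 0.62), smooth muscle-like cells (0.17, 0.12 to 0.22) and RPE cells (0.06, 0.04 to 0.08). In NK or T-like cells it was lower in Dox (-0.33, -0.55 to -0.10). The cluster led by Hbb-bs had a median of 1187 UMIs per cell in control and 763 in Dox, and its Rpe65 level was 523.2 and 1442 CPM.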

How the results depend on the processing

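Under 14 other settings, the log2 ratio of Ckmt1 in Serpina3n-high over low Dox cells ranged from 0.86 (cells thinned to 5000 UMIs) to 1.20 (minus the median of all genes) and that of Slc6a8 from 1.19 to 1.91 (thinned), and Dox over control for Ckmt1 in all RPE cells from 0.36 to 0.50. Gamt was -0.69 when thinned. Ckb in Serpina3n-high over low Dox cells was -0.11 with at least 5 Rpe65 UMIs, -0.24 with the RPE-like cluster also required, -0.26 in all cells of that cluster, -0.16 with Serpina3n at 500 CPM, -0.24 without the highest doublet scores, -0.30 in cells of 15000 to 40000 UMIs (a setting chosen after seeing the data), -0.09 as the mean of the cells' own CPM, -0.11 thinned and -0.02 minus the median. Dox over control for Ckb in all RPE cells was 0.03 without the doublet scores, 0.03 at 15000 to 40000 UMIs and 0.08 thinned, and for Slc6a8 it ranged from -0.01 to 0.56.

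For RPE over all other cells, in control and Dox, Ckb was 1.53 and 1.64 with at least 20 Rpe65 UMIs, 1.55 and 1.64 with the cluster required, 1.57 and 1.63 without the doublet scores and 1.36 and 1.28 as the mean of cells, and 1.64 in Dox without other cells of over 2 Rpe65 UMIs. Ckmt1 was 3.55 and 2.35 as the mean of cells and 4.74 in control without those other cells. Gatm was -3.38 in control with the cluster required, -3.17 without the doublet scores and -2.74 in Dox as the mean of cells, and Slc6a8 was -1.38 in control as the mean of cells. The list around the members had 1 lower call in all RPE cells at a limit of 20 UMIs and 2 in Serpina3n-high over low Dox cells minus the median. These counts have no share of all genes at the same setting beside them. Gamt in Serpina3n-high over low control cells turned from 0.59 to -0.14 with a higher limit on Serpina3n (8 cells). The cause of these moves was not tested.

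No paired analysis was possible because each condition had 1 library, so that no replicate could be left out either. Of the 5 genes most like each member, 4 of 5 for Ckmt1, 5 of 5 for Ckb, 2 of 5 for Slc6a8, 4 of 5 for Gatm and 3 of 5 for Gamt were also named with a pseudocount of 10. Depth limits Gatm in RPE cells (25 and 7 UMIs) and every value of the 15 Serpina3n-high control cells.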
